A study of Rattus norvegicus with 24 samples.

Results

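The comparison described here was between dyskinetic and non-dyskinetic striatum of rats that had all received a 6-OHDA lesion and levodopa. The 6 arrays, of 24 in the series, were chosen by their labels alone: tissue striatum, lesion 6-OHDA, treatment levodopa, and a rating of dyskinetic (3 arrays) or non-dyskinetic (3 arrays). The animals were adult male Sprague Dawley rats of 200 to 225 g, injected in the brain with 6-hydroxydopamine (6-OHDA), a toxin taken up by dopamine neurons, at 5 µg/µl. Lesions counted as successful by motor testing without drug and by a loss of over 90% of striatal dopamine. Daily injections began 3.5 weeks after the lesion, and abnormal movements were rated in 7 sessions. Animals with dyskinesia under levodopa form the dyskinetic group, and animals that stayed free of it on the same drug form the non-dyskinetic group. Beside them stand 3 arrays of lesioned rats given saline in place of levodopa (vehicle) and 3 of sham-injected rats given levodopa (intact). No group was both intact and free of levodopa. Each array came from a different animal within its group, so that the spread between arrays is a spread between animals. Levodopa dose, the side sampled, the interval from the last injection to death and the lesion size of each animal were not given in the sources used here.

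The striatum is the main input station of the basal ganglia, and most of its neurons are GABAergic projection neurons of the direct pathway (dopamine D1 receptor, dynorphin, substance P) or the indirect pathway (dopamine D2 receptor, enkephalin). Loss of dopamine makes direct-pathway neurons oversensitive, and repeated levodopa then drives the cAMP and MAP kinase cascades in them. Levodopa-induced dyskinesia, the involuntary movement that limits treatment of Parkinson's disease, has long been tied in rodents to FosB-family proteins and to prodynorphin. The question of the design was which transcripts set lesioned rats that developed dyskinesia apart from lesioned rats on levodopa that did not.

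Expression was read from exon-level microarrays, and each gene's value was the mean log2 level of the probe sets that name that gene alone. The striatal label was checked against markers that nigra should lack. Adora2a, the adenosine receptor of indirect-pathway neurons, averaged 11.28 in dyskinetic and 11.29 in non-dyskinetic striatum on the log2 scale, against 7.39 and 7.29 in the nigral arrays of the same groups. The regulator of G protein signalling Rgs9 averaged 12.05 and 12.20 in striatum, against 7.76 and 7.62 in nigra. Median log2 levels of the 12 striatal arrays lay between 7.90 and 7.98. Because the samples were bulk tissue, fewer cells of a type and less RNA per cell cannot be told apart in any of the differences that follow.

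Of 12436 genes tested, 654 (5.26%) passed at an adjusted p under 0.05 and are called changed. Higher levels in dyskinetic striatum were called for 381 genes (3.06%) and lower levels for 273 (2.2%), while 2655 genes had an unadjusted p under 0.05. Rises were larger than falls. The log2 difference reached 1 or more in 55 of the rises and -1 or less in 2 of the falls, and its median was 0.55 among called rises, -0.38 among called falls and -0.03 over all genes. The lowest array of one group lay above the highest of the other in 2929 genes (23.6%), and in 650 of the 654 called. The exceptions were Dhx38, Drd3, Tiparp and Tubb6. The counts leaned on single arrays. Leaving out dyskinetic array 2 left 293 called genes, 218 higher and 75 lower. When a non-dyskinetic array was left out, the calls were 280 higher and 107 lower (array 2), 256 and 136 (array 3) or 454 and 491 (array 1).

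**Figure D1:**
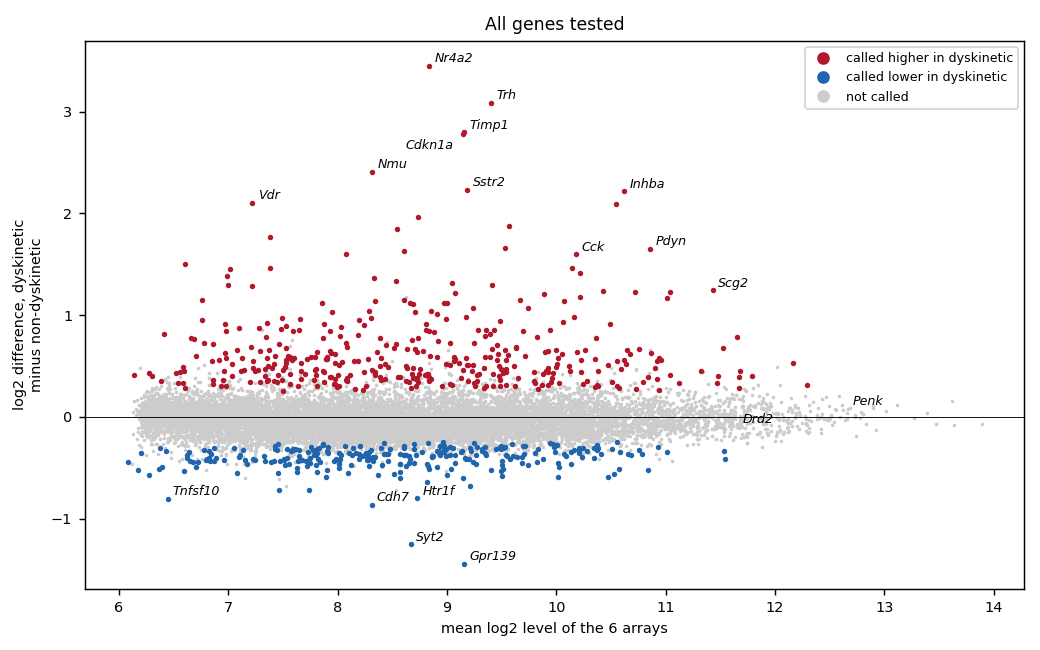
Each point is 1 of the 12436 genes tested. The horizontal axis is its mean log2 level over the 6 arrays and the vertical axis is the log2 difference, dyskinetic minus non-dyskinetic; red and blue points passed at an adjusted p under 0.05. The upper edge reaches 3.45 (Nr4a2), while the lower edge ends at -1.44 (Gpr139).

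The animals of each group were not alike. Dyskinetic array 3 was the lowest of its group in 289 of the 381 called rises (75.9%), against 32.0% of all genes. Non-dyskinetic array 1 was the highest of its group in 224 of them (58.8%), against 30.8% of all genes. Among the 381 called rises the median SD was 0.14 in dyskinetic and 0.13 in non-dyskinetic striatum, against 0.10 in vehicle and 0.09 in intact striatum. The dyskinesia score of each animal was not given in the sources used here, so this ordering could not be set against behaviour.

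Transcription factors of the immediate early class, which neurons switch on within minutes to hours of strong stimulation, held the largest rise of all. Of 19 listed members tested, 12 rose, none fell, and the median log2 difference was 0.84. Counts in this and every later list stand beside 3.06% of all genes called higher and 2.2% called lower. The lists were written with earlier results of these data known, so the counts are descriptions and not independent of the calls. Nr4a2 (Nurr1), an orphan nuclear receptor known for its role in dopamine neurons, stood at log2 levels of 11.02, 10.98 and 9.68 in dyskinetic striatum, against 7.96, 6.55 and 6.80 in non-dyskinetic striatum. Vehicle animals had 6.82, 7.01 and 6.85 and intact animals 6.76, 6.61 and 6.80. All 3 dyskinetic arrays were thus far above the other 9, and the highest of the other 9 was non-dyskinetic array 1. The log2 difference was 3.45 ± 0.33 (SE throughout; adjusted p = 3.1e-05).

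Fosb, whose products include the long-lived ΔFosB protein, had log2 levels of 10.05, 9.87 and 9.22 in dyskinetic striatum, against 8.43, 7.20 and 7.62 in non-dyskinetic striatum, a difference of 1.96 ± 0.24 (adjusted p = 2.5e-04). The gene mean does not separate ΔFosB from full-length Fosb. The related gene Fos reached 9.24, 9.29 and 9.00, against 8.61, 7.43 and 8.05 (1.15 ± 0.21, adjusted p = 0.0043). For both genes non-dyskinetic array 1 came nearest to the dyskinetic arrays without reaching them. The neuronal activity factor Npas4 rose by 1.21 ± 0.22, with levels of 10.32, 10.67 and 10.49 against 9.70, 8.78 and 9.36 (adjusted p = 0.0040). Nr4a3, a close relative of Nr4a2, rose by 1.30 ± 0.27, but its adjusted p of 0.0097 became 0.057 without dyskinetic array 2. Other called members were Egr4 (1.07), Junb (0.99), Egr3 (0.92), Fosl1 (0.84), Bhlhe40 (0.79), Crem (0.45, with an adjusted p of 0.053 without non-dyskinetic array 2) and Klf2 (0.36), all as log2 differences.

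Several classical members of the class did not pass. Egr1 had log2 levels of 12.41, 12.24 and 12.13 in dyskinetic striatum and 12.07, 11.30 and 11.94 in non-dyskinetic striatum (0.49 ± 0.15, adjusted p = 0.068). Egr2 had 9.44, 9.14 and 9.08, against 8.99, 6.77 and 8.35 (1.18 ± 0.36, adjusted p = 0.073). The groups did not overlap in either gene, as in 23.6% of all genes, but non-dyskinetic array 2 lay far below its own group in both. Jun differed by 0.65 ± 0.19 (adjusted p = 0.060) and Nr4a1 by 0.66 ± 0.25 (adjusted p = 0.13). Atf3, below the level filter, gave 0.89 ± 0.23 when every gene was tested (adjusted p = 0.047), with levels of 6.96, 6.92 and 6.77 against 6.75, 5.53 and 5.70.

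**Figure D2:**
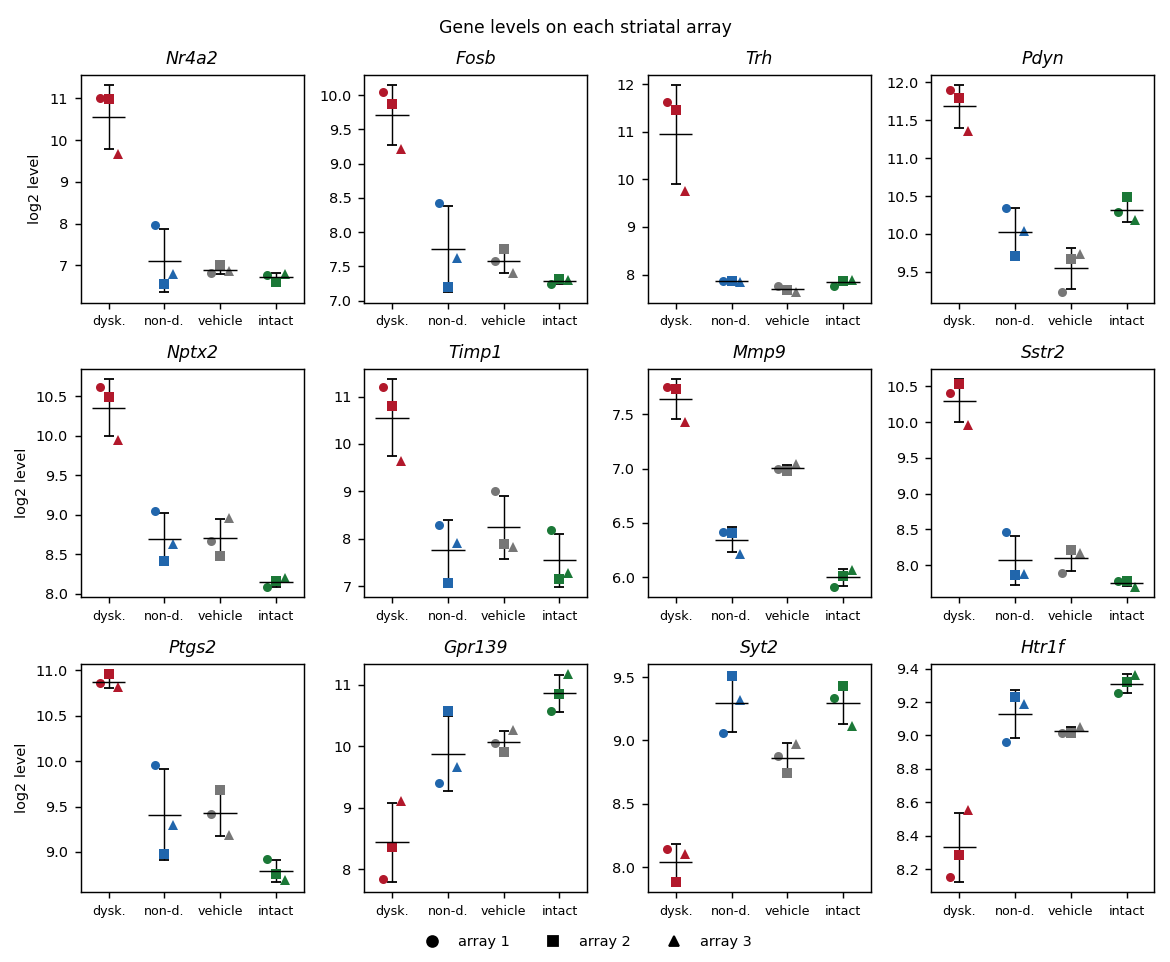
Log2 levels of 12 genes on each of the 12 striatal arrays; the groups run from dyskinetic through non-dyskinetic and vehicle to intact, symbols mark the arrays, and lines give the mean and SD of 3 arrays. In Trh all 9 other arrays lie between 7.64 and 7.89 while the dyskinetic arrays lie between 9.75 and 11.63, and Gpr139, Syt2 and Htr1f run the other way.

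Promoter sequence was examined because CREB, the cAMP-responsive factor, binds the palindrome TGACGTCA and its shorter form TGACG, and because many of these genes moved together. RefSeq (GRCr8) gave a single promoter for 9780 of the 12436 genes, 300 of them called higher and 208 called lower, and the 250 bases before the annotated start were searched on both strands. The following promoters are shown, each 5′ to 3′ on the gene's own strand, for 4 of the largest rises and for 2 further rises that hold the full palindrome. Capitals mark TGACG or its reverse complement CGTCA, which overlap inside the palindrome.
Nr4a2 (chr3:62104888-62105137, minus strand): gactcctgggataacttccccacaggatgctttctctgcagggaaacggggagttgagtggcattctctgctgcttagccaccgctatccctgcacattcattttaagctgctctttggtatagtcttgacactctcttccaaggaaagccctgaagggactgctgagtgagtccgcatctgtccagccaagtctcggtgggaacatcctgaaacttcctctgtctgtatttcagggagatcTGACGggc
Trh (chr4:126301763-126302012, minus strand): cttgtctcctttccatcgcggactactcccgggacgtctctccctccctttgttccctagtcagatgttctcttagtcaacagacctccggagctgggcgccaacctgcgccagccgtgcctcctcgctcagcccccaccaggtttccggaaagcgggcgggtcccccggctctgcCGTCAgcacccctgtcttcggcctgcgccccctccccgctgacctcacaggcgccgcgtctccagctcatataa
Timp1 (chrX:3771123-3771372, minus strand): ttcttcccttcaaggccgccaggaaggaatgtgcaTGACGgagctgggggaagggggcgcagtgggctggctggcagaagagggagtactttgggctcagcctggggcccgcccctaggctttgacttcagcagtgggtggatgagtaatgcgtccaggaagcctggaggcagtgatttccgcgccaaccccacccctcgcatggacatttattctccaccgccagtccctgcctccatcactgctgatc
Cdkn1a (chr20:7150682-7150931, plus strand): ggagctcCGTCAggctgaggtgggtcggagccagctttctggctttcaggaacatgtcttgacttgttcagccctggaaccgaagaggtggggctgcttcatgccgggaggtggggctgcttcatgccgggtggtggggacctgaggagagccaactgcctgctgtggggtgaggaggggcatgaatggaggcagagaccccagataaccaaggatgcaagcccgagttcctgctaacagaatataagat
Sstr2 (chr10:99163103-99163352, plus strand): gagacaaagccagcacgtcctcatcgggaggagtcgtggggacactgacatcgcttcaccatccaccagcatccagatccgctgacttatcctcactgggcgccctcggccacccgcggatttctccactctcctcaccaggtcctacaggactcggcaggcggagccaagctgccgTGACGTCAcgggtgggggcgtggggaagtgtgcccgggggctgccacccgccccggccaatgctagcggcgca
Epha2 (chr5:158888379-158888628, plus strand): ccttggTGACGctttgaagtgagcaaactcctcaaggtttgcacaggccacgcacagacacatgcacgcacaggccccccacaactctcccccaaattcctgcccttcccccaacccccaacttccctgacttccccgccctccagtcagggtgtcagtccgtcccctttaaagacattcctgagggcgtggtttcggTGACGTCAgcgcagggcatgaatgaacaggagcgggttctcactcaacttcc

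In Sstr2 the match began 73 bases before the start, while in Nr4a2 the short form began 8 bases before it. The full palindrome TGACGTCA was present in 16 promoters of called rises (5.33%), in 4 of called falls (1.92%) and in 259 of all tested genes (2.65%). The 16 included Sstr2, Epha2, Scg2, Dusp1, Th and Vgf. Its short form TGACG, which every palindrome contains, was present in 39.33% of called rises, 25.96% of called falls and 26.93% of all. The AP-1 motif TGAGTCA, bound by Fos and Jun proteins, was in 5.67% of called rises, 1.92% of called falls and 3.18% of all. The EGR motif GCGTGGGCG was in 1.67%, 0.0% and 0.95% of the same groups, the NR4A motif AAAGGTCA in 1.33%, 0.96% and 0.73%, and the CArG box of serum response factor in 2.33%, 0.0% and 1.1%. These shares describe letters in a window and carry no test. Fosb, Pdyn, Inhba and Vdr, all among the largest rises, held none of these 6 motifs.

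Genes that act at synapses or in signalling after such stimulation rose as well. Of 19 activity-regulated effectors tested, 10 rose and none fell, with a median log2 difference of 0.64. Nptx2, a secreted pentraxin that gathers AMPA receptors at excitatory synapses, had 10.62, 10.50 and 9.95 in dyskinetic striatum, against 9.05, 8.41 and 8.63 in non-dyskinetic striatum (1.66 ± 0.17, adjusted p = 6.3e-05). Vehicle animals, at 8.67, 8.48 and 8.96, overlapped the non-dyskinetic group. Rem2, a small GTPase that restrains calcium channels and dendritic branching, had 11.02, 10.94 and 10.81, against 10.01, 9.24 and 9.29 (1.41 ± 0.15, adjusted p = 6.7e-05). Arc, whose protein governs AMPA receptor endocytosis, had 11.82, 11.76 and 11.37, against 11.04, 9.64 and 10.59 (1.23 ± 0.24, adjusted p = 0.0067). The kinases Plk3, Pim1 and Sik1 rose by 1.63, 1.15 and 1.07, and Gadd45b, Nptx1 and Amigo3 by 0.85, 0.77 and 0.64. Values were near 0 for Plk2 (-0.04), Rasd1 (0.08) and Mapk4 (0.02), which share the list but did not pass.

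Feedback inhibitors of MAP kinase signalling split into genes with large rises and genes with differences near 0. Of 19 tested, 8 rose, none fell and the median log2 difference was 0.25. The nuclear phosphatase Dusp2 averaged 9.46 ± 0.23 in dyskinetic striatum and 7.62 ± 0.35 in non-dyskinetic striatum (SD, n = 3 each), and the lowest dyskinetic array, at 9.19, lay above every other array of the 12. The limma fit gave a difference of 1.84 ± 0.15 (adjusted p = 7.8e-06). Dusp5, an ERK phosphatase of the nucleus, had 10.97, 10.66 and 9.87, against 9.19, 7.98 and 8.71 (1.87 ± 0.27, adjusted p = 6.8e-04). Dusp4 had 9.07, 9.34 and 9.18, against 8.24, 7.55 and 7.79, while Dusp1 rose by 1.17 and Dusp14 by 0.68. Dusp6, the cytoplasmic ERK phosphatase, had 8.03, 8.19 and 8.53, against 8.49, 8.28 and 8.17 (-0.06 ± 0.13, adjusted p = 0.83), so its groups overlapped fully. The Sprouty and Spred inhibitors of receptor signalling and the ERK-responsive factors Etv1, Etv4 and Etv5 did not pass either, with differences between -0.25 and 0.27. Further rises were those of Ier3 (1.60), Phlda1 (1.23) and the EGF receptor inhibitor Errfi1 (0.58).

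Among neuropeptide precursors, 6 of 15 tested rose and none fell. Trh, the precursor of thyrotropin-releasing hormone, had 11.63, 11.45 and 9.75 in dyskinetic striatum, against 7.86, 7.86 and 7.84 in non-dyskinetic striatum (3.09 ± 0.32, adjusted p = 5.6e-05). Vehicle animals had 7.76, 7.67 and 7.64 and intact animals 7.77, 7.87 and 7.89. The rise was thus seen in every dyskinetic animal, least in array 3, and the 9 other arrays lay between 7.64 and 7.89.

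Pdyn, the dynorphin precursor of direct-pathway neurons, had 11.89, 11.80 and 11.36, against 10.34, 9.71 and 10.04 (1.66 ± 0.17, adjusted p = 5.1e-05). Vehicle animals had 9.23, 9.67 and 9.73, overlapping the non-dyskinetic group, and intact animals had 10.29, 10.49 and 10.18. Cck, the cholecystokinin precursor, had 10.83, 11.17 and 10.93, against 9.87, 9.27 and 9.00 (1.60 ± 0.17, adjusted p = 8.5e-05). Tac3, the neurokinin B precursor, had 10.57, 10.80 and 10.53, against 9.56, 9.71 and 9.22 (1.14 ± 0.12, adjusted p = 6.6e-05). In Tac3 the vehicle arrays, at 10.00, 10.23 and 9.91, lay between both groups, and the same held for Nmu, the neuromedin U precursor. Nmu had 10.02, 9.58 and 8.96 in dyskinetic striatum, against 7.44, 7.36 and 6.51 in non-dyskinetic and 8.62, 8.55 and 7.68 in vehicle striatum (2.41 ± 0.28 between the first pair, adjusted p = 1.6e-04). Neurotensin (Nts) rose by 1.14 ± 0.22, with levels of 9.22, 8.69 and 8.83 against 7.50, 8.32 and 7.50 (adjusted p = 0.0068).

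Precursors that did not pass included the other main peptides of projection neurons. Penk, the enkephalin precursor of indirect-pathway neurons, had 12.71, 12.63 and 12.76 in dyskinetic striatum and 12.64, 12.64 and 12.59 in non-dyskinetic striatum (0.08 ± 0.08, adjusted p = 0.60). Tac1, the substance P precursor that direct-pathway neurons share with Pdyn, had 10.80, 10.93 and 10.90, against 10.85, 10.41 and 10.37 (0.34 ± 0.11, adjusted p = 0.094). Sst and Npy of the interneurons differed by 0.14 each and did not pass. Proteins that package peptides rose in part, with 3 of 12 tested called and none lower. Scg2, a granin of dense-core vesicles, had 12.21, 12.16 and 11.79, against 11.03, 10.72 and 10.67 (1.24 ± 0.11, adjusted p = 2.0e-05). The granin-like precursor Vgf rose by 0.94 ± 0.13 and the prohormone convertase Pcsk1 by 0.74 ± 0.10.

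Genes that remodel the extracellular matrix rose without a called fall, 7 of 21 tested. Timp1, a secreted inhibitor of metalloproteinases, had 11.20, 10.81 and 9.64 in dyskinetic striatum, against 8.29, 7.06 and 7.91 in non-dyskinetic striatum (2.80 ± 0.41, adjusted p = 8.6e-04). It varied in every group, and vehicle animals had 9.01, 7.88 and 7.83. Mmp9, a gelatinase whose protein Timp1 inhibits, had 7.76, 7.73 and 7.43, against 6.42, 6.41 and 6.21 (1.29 ± 0.09, adjusted p = 4.1e-06). The non-dyskinetic Mmp9 arrays lay close to genes left out for low level, such as Fas (6.03 to 6.33 in non-dyskinetic striatum). Vcan, the matrix proteoglycan versican, had 9.77, 9.94 and 9.40, against 8.26, 8.47 and 8.44 (1.32 ± 0.11, adjusted p = 1.0e-05). Protease and inhibitor were thus both called higher. Their groups did not overlap, as in 650 of the 654 called genes. Plaur, the urokinase receptor, rose by 1.22 ± 0.15, the protease Adamts9 by 0.78 ± 0.10, the membrane protease Mmp14 by 0.63 ± 0.09 and tissue plasminogen activator (Plat) by 0.62 ± 0.08.

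Secreted factors and hormone receptors included some of the strongest single rises. Inhba, the activin A subunit, had 11.90, 11.85 and 11.44 in dyskinetic striatum, against 10.12, 9.15 and 9.26 in non-dyskinetic striatum (2.22 ± 0.19, adjusted p = 1.4e-05). Of the 24 growth factor and activin genes tested, 3 rose and 3 fell. Besides Inhba, the angiogenic factor Vegfa rose by 0.57 ± 0.10 and Hbegf by 0.52 ± 0.11. Falls were called for Fgf11 (-0.50), Tgfa (-0.48) and Nrg2 (-0.31). Leaving out dyskinetic array 2, or non-dyskinetic array 2 or 3, left 2 rises and no fall in the list. The calls of Hbegf, Fgf11, Tgfa and Nrg2 each ended when 1 of several arrays was left out, with adjusted p up to 0.061, 0.13, 0.098 and 0.13.

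The vitamin D receptor Vdr had 8.58, 8.55 and 7.69 in dyskinetic striatum, against 6.26, 6.09 and 6.15 in non-dyskinetic striatum (2.11 ± 0.17, adjusted p = 7.8e-06). Its vehicle and intact arrays lay between 6.00 and 6.16, so that only dyskinetic arrays stood above 6.26. Outside the dyskinetic group Vdr thus lay at the level of genes left out for low level, such as Fas (6.03 to 6.33 in non-dyskinetic striatum). The size of its difference is measured from near that floor. Of 15 thyroid, vitamin D and steroid hormone genes tested, 4 rose, and 2 without dyskinetic array 2 or non-dyskinetic array 3. Dio2, which activates thyroid hormone, rose by 0.60 ± 0.12. Cdkn1a, the p21 inhibitor of cyclin-dependent kinases, had 10.81, 10.75 and 10.05, against 8.35, 7.37 and 7.56 (2.78 ± 0.21, adjusted p = 7.5e-06). In its list of 16 cell cycle and p53 genes 2 rose and 1 fell, and 1 call was left without dyskinetic array 2 or non-dyskinetic array 2 or 3. Prostaglandin synthesis was represented by both inducible enzymes. Cyclooxygenase-2 (Ptgs2) had 10.86, 10.96 and 10.81, against 9.96, 8.98 and 9.30 (1.47 ± 0.18, adjusted p = 2.7e-04), and the prostaglandin E synthase Ptges had 8.59, 8.23 and 7.50, against 6.86, 6.46 and 6.62 (1.46 ± 0.20, adjusted p = 5.5e-04).

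Receptors for transmitters and peptides moved gene by gene. Sstr2, a somatostatin receptor that lowers cAMP, had 10.41, 10.53 and 9.97 in dyskinetic striatum, against 8.46, 7.87 and 7.88 in non-dyskinetic striatum (2.23 ± 0.16, adjusted p = 4.1e-06). Gpr3, an orphan receptor that raises cAMP without a ligand, had 11.89, 11.75 and 11.13, against 10.02, 9.02 and 9.43 (2.10 ± 0.21, adjusted p = 4.5e-05). Of 22 dopamine and cAMP genes 2 were called, Gpr3 and the dopamine receptor Drd3, beside 5.26% of all genes tested. The main dopamine receptors did not pass, with Drd1 at 10.83, 10.92 and 10.85 against 10.78, 10.87 and 10.57 (0.13 ± 0.09, adjusted p = 0.42). Drd2 had 11.61, 11.59 and 11.61, against 11.63, 11.78 and 11.68 (-0.10 ± 0.07, adjusted p = 0.43). Drd3, which rodent work has tied to behavioural sensitization to levodopa, had 6.82, 6.85 and 6.54, against 6.56, 6.07 and 6.28 (0.43 ± 0.11, adjusted p = 0.032). Its groups overlapped, and its call ended in 4 of the 6 fits that left out 1 array. The adjusted p reached 0.16 without dyskinetic array 2.

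Serotonin receptors moved in opposite directions. Htr1b, an inhibitory receptor of projection neuron terminals, had 12.44, 12.53 and 12.31 in dyskinetic striatum, against 11.88, 11.81 and 12.01 in non-dyskinetic striatum (0.53 ± 0.08, adjusted p = 0.0012). Its relative Htr1f had 8.15, 8.29 and 8.55, against 8.96, 9.23 and 9.19 (-0.80 ± 0.10, adjusted p = 2.3e-04), and Htr4, which raises cAMP, fell by 0.47 on the log2 scale. Htr2a did not pass at -0.03 ± 0.11. Of 14 peptide receptors tested 4 rose (2 without dyskinetic array 2), among them the prokineticin receptor Prokr2 at 7.74, 7.94 and 7.87 against 7.19, 7.17 and 7.37 (0.60 ± 0.09). For Prokr2 the vehicle arrays, at 7.92, 7.74 and 7.66, overlapped the dyskinetic group. The vesicular GABA transporter Slc32a1 rose by 0.48 ± 0.10 (adjusted p = 0.010), a call that the median of its probe sets in place of the mean ended (0.068). Gad1, which makes GABA, rose by 0.39 ± 0.09, with an adjusted p of 0.016 that reached 0.085 without dyskinetic array 2. The Gad1 call ended in 3 of the 6 fits that left out 1 array. None of 26 glutamate receptor and postsynaptic scaffold genes passed, where the median difference was -0.06 and Grin1 (-0.05), Grin2b (-0.08) and Dlg4 (-0.02) were near 0.

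The largest falls were those of a receptor and a vesicle protein. Gpr139, an orphan receptor enriched in the habenula and striatum, had 7.84, 8.37 and 9.11 in dyskinetic striatum, against 9.41, 10.57 and 9.66 in non-dyskinetic, 10.05, 9.90 and 10.26 in vehicle and 10.57, 10.85 and 11.17 in intact striatum. The difference between dyskinetic and non-dyskinetic striatum was -1.44 ± 0.29 (adjusted p = 0.0093; 0.054 with robust variance estimates). Syt2, a fast calcium sensor of transmitter release, had 8.14, 7.89 and 8.10, against 9.06, 9.51 and 9.32 (-1.25 ± 0.12, adjusted p = 2.7e-05). No dyskinetic array reached the lowest non-dyskinetic one in either gene, and dyskinetic array 3 was the nearest for Gpr139. Sytl5, a synaptotagmin-like Rab effector, fell by 0.72 ± 0.11, whereas the vesicle proteins Syt10 and Syp rose by 0.56 and 0.40.

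Among 38 axon guidance genes tested 7 fell and 2 rose. Plxnd1, a semaphorin receptor, had 8.37, 8.11 and 8.31 in dyskinetic striatum, against 8.80, 8.93 and 8.88 in non-dyskinetic striatum (-0.60 ± 0.08, adjusted p = 4.2e-04). Epha8 and Efnb2 fell by 0.55 ± 0.09 and 0.50 ± 0.09. The rises were those of Sema3c, a secreted semaphorin, at 0.95 ± 0.11, and Efnb1 at 0.58 ± 0.11; with the median of probe sets the adjusted p was 0.17 for Efnb1 and 0.063 for Efnb2. Of 35 adhesion genes 6 fell and 1 rose, and 3 calls were left without dyskinetic array 2 and 4 without non-dyskinetic array 3. Cdh7, a cadherin, had 7.31, 7.97 and 8.34, against 8.74, 8.73 and 8.75 (-0.87 ± 0.18, adjusted p = 0.011). The neuronal adhesion molecule L1cam had 9.77, 9.65 and 9.73, against 10.20, 10.29 and 10.43 (-0.59 ± 0.08, adjusted p = 6.8e-04). In L1cam the 3 dyskinetic animals agreed closely, while in Cdh7 they spread over more than 1 on the log2 scale.

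Potassium channels changed in both directions, with 3 of 37 higher and 5 lower. Without dyskinetic array 2 these were 2 and 2, without dyskinetic array 3 or non-dyskinetic array 3 they were 2 and 3, and without non-dyskinetic array 2 they were 1 and 3. The leak channel Kcnk4 had 8.01, 8.14 and 8.10 in dyskinetic striatum, against 8.75, 8.64 and 8.57 in non-dyskinetic striatum (-0.57 ± 0.09, adjusted p = 0.0023). Another leak channel, Kcnk10, outside the list, had 7.83, 7.84 and 6.39, against 5.84, 5.77 and 5.93 (1.50 ± 0.27, adjusted p = 0.0037), so its size rests on dyskinetic arrays 1 and 2. Its non-dyskinetic arrays lay below those of genes left out for low level, such as Fas (6.03 to 6.33). Kcng1, a modifier of voltage-gated channels, fell by 0.51 ± 0.08. Of 16 ectonucleotidase and purine genes, 3 fell and none rose. Entpd3 and Entpd1, which break down extracellular ATP, fell by 0.68 ± 0.10 and 0.53 ± 0.10, with Entpd3 at 8.81, 8.73 and 9.07 against 9.61, 9.61 and 9.43. The nucleoside transporter Slc29a1 fell by 0.41 ± 0.09 (adjusted p = 0.011). That call ended in 2 of the 6 fits that left out 1 array (adjusted p up to 0.055, without non-dyskinetic array 2). Adora2a, the receptor that adenosine acts on in indirect-pathway neurons, differed by -0.01.

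Stress and housekeeping lists are read against the 3.06% of all genes called higher and the 2.2% called lower. Of 23 heat shock and chaperone genes 4 rose, among them the neuronal cochaperone Dnajb5 at 11.33, 11.16 and 11.05 in dyskinetic striatum, against 10.88, 10.22 and 10.57 in non-dyskinetic striatum (0.63 ± 0.13, adjusted p = 0.0089). The calls of the other members ended in 5 (Hspb1), 3 (Bag3) and 3 (Dnajb1) of the 6 fits that left out 1 array, with adjusted p up to 0.12, 0.17 and 0.057. Ddit3 (CHOP), a factor of the unfolded protein response, had 9.34, 8.92 and 8.88, against 8.39, 8.41 and 8.43 (0.64 ± 0.11, adjusted p = 0.0031), and was 1 of 2 rises among 22 genes of that response (1 without dyskinetic array 1 or 2, or non-dyskinetic array 2 or 3). Eprs1 (0.56) was the single call among 17 aminoacyl-tRNA synthetases. Among 30 tubulin and cytoskeleton genes 4 rose and 1 fell, and 1 call was left without dyskinetic array 2. Tubb2b, a tubulin of growing neurites, rose by 0.56 ± 0.10. The calls of Tubb6, Nefh, Nefm and Tpm1 ended in 5, 3, 4 and 4 of the 6 fits that left out 1 array. Their adjusted p were highest without dyskinetic array 2 (0.18, 0.091, 0.22 and 0.15). The death ligand Tnfsf10 (TRAIL) had 5.96, 5.95 and 6.22, against 6.67, 7.12 and 6.75 (-0.80 ± 0.14, adjusted p = 0.0038). None of 31 respiratory chain subunits and 1 of 27 calcium and sodium channel genes passed, the exception being Cacna1h (-0.35, with an adjusted p of up to 0.11 when 1 array was left out). Of 20 muscarinic, nicotinic, adenosine, opioid and cannabinoid receptor genes 1 rose and 1 fell, Chrm5 and Chrm1. Their calls ended in 4 and 3 of the 6 fits that left out 1 array, both without dyskinetic array 2 (adjusted p = 0.15 and 0.10).

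Some of the largest changes lay outside the lists. Prc1, which bundles spindle microtubules in dividing cells, had 8.18, 7.78 and 7.25 in dyskinetic striatum, against 6.24, 6.11 and 6.50 in non-dyskinetic striatum (1.45 ± 0.18, adjusted p = 2.1e-04). The non-dyskinetic Prc1 arrays lay close to genes left out for low level, such as Fas (6.03 to 6.33 in non-dyskinetic striatum). PVR, a nectin-like adhesion receptor, had 9.01, 9.15 and 8.89, against 7.92, 7.48 and 7.55 (1.37 ± 0.11, adjusted p = 8.8e-06). Epha2, a receptor tyrosine kinase for ephrins, rose by 1.38 ± 0.13. In all 3 genes every dyskinetic array was above every other striatal array. Falls outside the lists included the kinase Matk (-0.60 ± 0.09), the visinin-like calcium sensor Hpcal4 (-0.59 ± 0.09) and the pseudokinase Trib2 (-0.57 ± 0.10, with an adjusted p of 0.062 for the median of its probe sets).

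**Figure D3:**
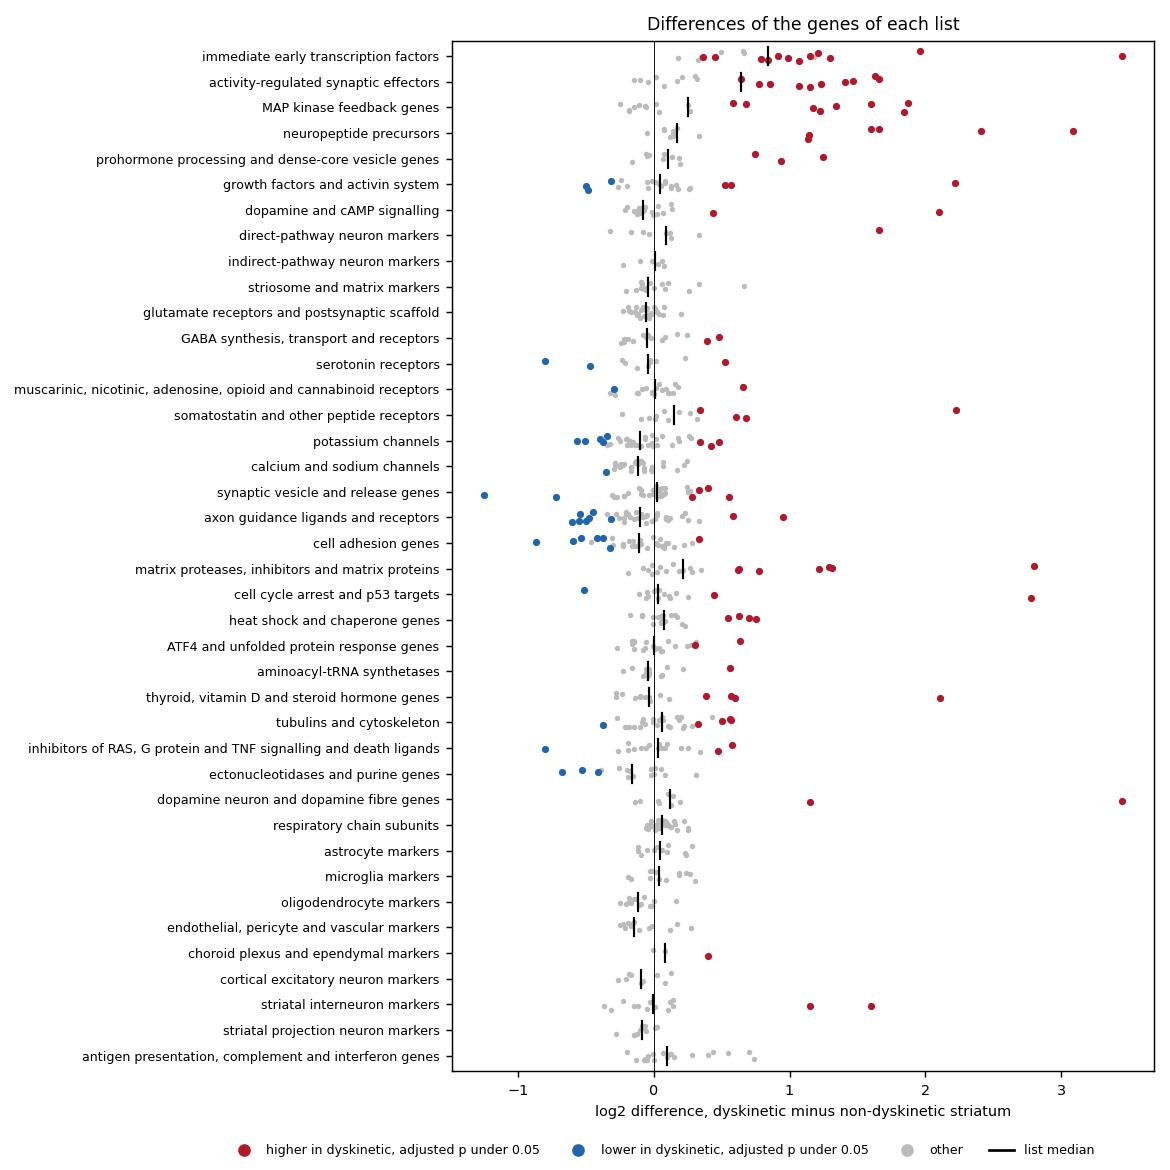
Each point is a gene of the named list, placed by its log2 difference, dyskinetic minus non-dyskinetic; red and blue points passed at an adjusted p under 0.05 and the upright bar is the list median. The first 4 rows hold 36 called rises and no called fall, while most points of the cell type rows lie near 0, apart from Pdyn (1.66), Cck (1.60) and Th (1.15).

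Across all 40 lists, which were written with earlier results of these data known, 712 of 839 listed genes were tested. Of these 123 were called, 90 higher and 33 lower. A further 65 were below the level filter and 62 had no probe set of their own. Of those below the filter, the death ligand Faslg differed by 0.82 ± 0.12 when all genes were tested (adjusted p = 8.1e-04) and the stress peptide gene Crh by 0.41 ± 0.10 (adjusted p = 0.039), while Bdnf differed by 0.02.

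Markers of other cells were measured beside these changes. None of 12 astrocyte, 13 microglial, 14 oligodendrocyte, 13 vascular, 9 cortical neuron or 13 striatal projection neuron markers was called. Mean log2 levels of the astrocyte list ranged from 10.76 to 10.82 in dyskinetic and from 10.66 to 10.79 in non-dyskinetic striatum. Those of the microglial list ranged from 9.25 to 9.45 and from 9.05 to 9.53, and those of the projection neuron list from 11.46 to 11.54 and from 11.50 to 11.67. The oligodendrocyte list was slightly lower in every dyskinetic array (10.08 to 10.10, against 10.15 to 10.21), and its part in the called falls was not tested. Antigen presentation, complement and interferon genes varied most between animals (7.99 to 8.32, against 7.63 to 8.29), and none of 19 passed. Gfap, the astrocyte filament that rises in injured tissue, had 11.75, 11.62 and 11.36, against 11.80, 10.62 and 11.60. The direct-pathway marker list also did not overlap (9.65 to 9.70, against 9.47 to 9.53). Only Pdyn (1.66) was called of its 9 tested members, and its median log2 difference was 0.09. Intact arrays of that list ranged from 9.70 to 9.77. The striatal interneuron list did not overlap either (8.66 to 8.75, against 8.45 to 8.62), with a median difference of -0.01. That list had 2 called rises of 14, Cck and Th, while its cholinergic marker Chat differed by -0.37 (adjusted p = 0.059). Of 3 choroid plexus and ependymal markers tested, Kl rose by 0.40 ± 0.09 (adjusted p = 0.016), and the list ranged from 6.51 to 6.77, against 6.46 to 6.55. The Kl call ended in 3 of the 6 fits that left out 1 array (adjusted p up to 0.070, without dyskinetic array 2). Groups also did not overlap in 23.6% of all genes tested. Lists of other kinds did not overlap either, such as ectonucleotidase and purine genes (8.62 to 8.67, against 8.77 to 8.87). The means of the direct-pathway and interneuron lists include the large rises of Pdyn, Cck and Th. The part of the marker lists in the called differences was not tested.

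Of 10 genes of dopamine neurons and fibres tested, 2 rose, Nr4a2 and Th. Tyrosine hydroxylase (Th), which makes levodopa in dopamine and other catecholamine cells, had 7.77, 7.39 and 6.84 in dyskinetic striatum, against 6.30, 6.02 and 6.23 in non-dyskinetic striatum (1.15 ± 0.17, adjusted p = 9.2e-04). Vehicle animals had 6.69, 6.59 and 6.50 and intact animals 6.21, 6.18 and 6.50, so the 3 dyskinetic arrays were the highest of the 12. The non-dyskinetic Th arrays lay at the level of genes left out for low level, such as Fas (6.03 to 6.33 in non-dyskinetic striatum). Ddc, the next enzyme of the pathway, had 6.76, 6.86 and 6.87, against 6.62, 6.96 and 6.81, which overlapped. Below the level filter, the dopamine transporter gene Slc6a3 differed by -0.03 and the vesicular transporter gene Slc18a2 by 0.14, and neither passed.

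To place the difference, both groups were set beside vehicle striatum, bearing in mind that these comparisons share arrays. Dyskinetic and vehicle striatum differed in 644 genes (5.18%), and non-dyskinetic and vehicle striatum in 4 (0.0322%). Over the 25 largest rises of dyskinetic against non-dyskinetic striatum, the log2 difference of dyskinetic minus vehicle had a median of 1.82 (1.23 to 3.66) and that of non-dyskinetic minus vehicle 0.07 (-1.18 to 0.48). Over the 25 largest falls the medians were -0.46 (-1.63 to -0.17) and 0.15 (-0.24 to 0.49). The 4 genes that set non-dyskinetic apart from vehicle striatum were Htr2a, Mmp9, Krt17 and Vxn, each lower in non-dyskinetic animals. This set leaned on the settings. Genes called both here and between dyskinetic and non-dyskinetic striatum numbered 3, but 0 without non-dyskinetic array 3 or with the median of probe sets.

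Htr2a, a serotonin receptor of projection neurons, had 9.16, 9.24 and 9.51 in dyskinetic and 9.44, 9.38 and 9.18 in non-dyskinetic striatum, against 10.21, 10.52 and 10.45 in vehicle and 9.19, 9.18 and 9.01 in intact striatum. Non-dyskinetic minus vehicle was -1.06 ± 0.11 (adjusted p = 9.4e-04), and the vehicle arrays alone stood high. Mmp9 took another order, with dyskinetic arrays highest, vehicle arrays at 7.00, 6.97 and 7.04 next, then non-dyskinetic arrays and intact arrays at 5.91, 6.01 and 6.07. Non-dyskinetic minus vehicle was -0.66 ± 0.09 (adjusted p = 0.025). Krt17, a keratin, had 7.65, 7.52 and 7.48 in dyskinetic, 7.07, 6.80 and 6.71 in non-dyskinetic and 7.43, 7.55 and 7.44 in vehicle striatum. For Krt17 and likewise for Vxn, at 8.79, 9.05 and 8.86 in dyskinetic, 8.58, 8.49 and 8.50 in non-dyskinetic and 8.99, 9.23 and 9.02 in vehicle striatum, the dyskinetic and vehicle arrays overlapped.

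The substantia nigra of the same 2 groups served to ask whether the difference was shared by another station of the circuit. Of the 7 lesioned, levodopa-treated animals in the series, 5 gave both tissues, and the animal entered the fit as a random block. The dyskinetic minus non-dyskinetic difference differed between striatum and nigra in 191 genes (1.54%), 164 of them more positive in striatum and 27 more negative. For Nr4a2 it was 3.45 in striatum and -0.20 ± 0.31 in nigra, a tissue difference of 3.62 ± 0.41 (adjusted p = 2.7e-05). Trh differed by 0.06 ± 0.27 in nigra and Pdyn by -0.02 ± 0.17. Cck showed opposite signs, with 10.27 in dyskinetic and 10.75 in non-dyskinetic nigra (-0.48 ± 0.18).

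In the list of 19 immediate early factors the tissue difference passed for 4. Besides Nr4a2 these were Fosb (1.42 ± 0.28, adjusted p = 0.0065), Egr4 (0.94 ± 0.17, adjusted p = 0.0037) and Bhlhe40 (0.78 ± 0.17, adjusted p = 0.015), whose nigral differences were 0.55, 0.14 and 0.00. It did not pass for the others. Fos averaged 9.01 in dyskinetic and 8.21 in non-dyskinetic nigra (0.80 ± 0.20, adjusted p of the tissue difference 0.69). Npas4 differed by 0.73 ± 0.24 in nigra, Arc by 0.70 ± 0.20 and Dusp1 by 0.83 ± 0.29, and their adjusted p for the tissue difference were 0.65, 0.49 and 0.85. These values do not show that the tissues responded alike. Th ran against its striatal rise, averaging 11.46 ± 0.69 in dyskinetic and 12.27 ± 0.24 in non-dyskinetic nigra (SD, n = 3 each), and its tissue difference passed (adjusted p = 0.0044 in the limma fit). The part of this nigral Th difference in the striatal results was not tested. Restricting the test to the 5 animals with both tissues left 1 gene. The count of 191 was 104 without striatal dyskinetic array 2, 112 without nigral dyskinetic array 2 and 322 without striatal dyskinetic array 3.

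**Figure D4:**
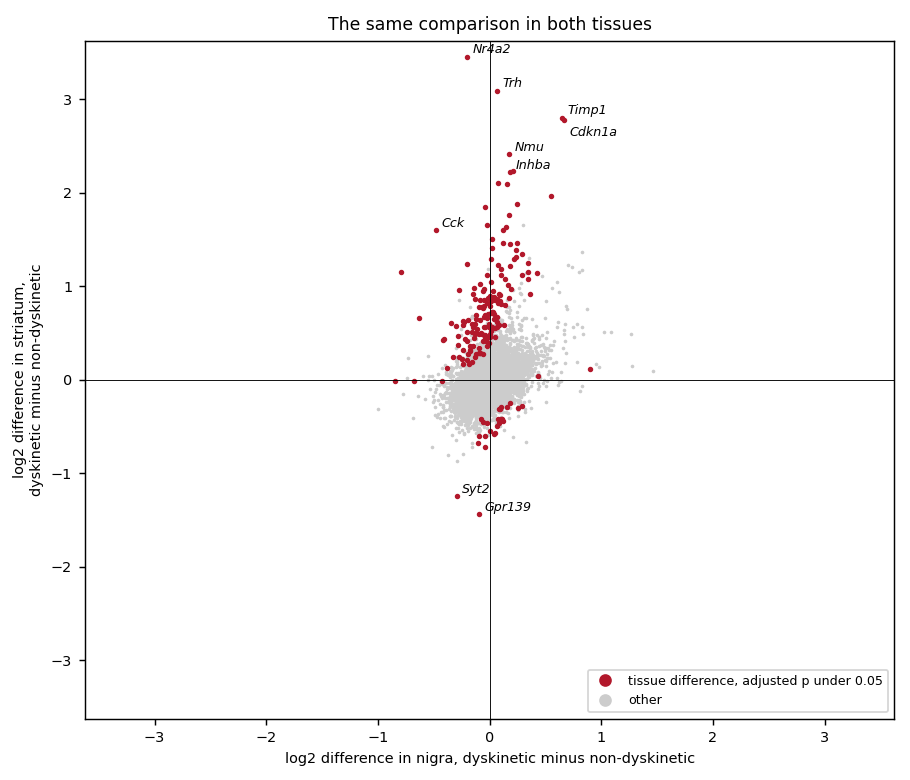
Each point is a gene; the horizontal axis is its log2 difference, dyskinetic minus non-dyskinetic, in nigra and the vertical axis the same difference in striatum. Red points are the 191 genes whose difference itself differed between tissues, and most of them rise straight up near 0 on the nigral axis.

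Because the array reads single exons, probe sets of one gene can differ where a transcript changes its start, end or splicing. Probe set usage was called in 38 of 11567 genes (0.329%), 20 of them also called by gene mean. The test pools one spread over the probe sets of a gene and made more false calls than intended in simulated data, and a test with each probe set's own spread left 1 gene, Sdc1. The count of 38 was 15 or 108 when dyskinetic array 2 or 1 was left out, and 99, 22 or 24 when non-dyskinetic array 1, 2 or 3 was. The genes below are therefore given by the values of their probe sets above the level filter, ordered by array number, since genome positions were not used here. With each probe set's own spread, the lowest adjusted p over the probe sets of a gene was 0.22 for Crem, 0.10 for Rcan2, 0.18 for Elmo1, 0.44 for Pde4b, 0.44 for Usp2, 0.30 for Srxn1, 0.052 for Plagl1, 0.098 for Ercc1 and 0.18 for Arhgap25, so that none of these passed.

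Crem encodes the activator CREM and, from an internal promoter, the short repressor ICER. Of its first 8 probe sets, those above the level filter differed by -0.22 to 0.21 and those below it by -0.85 to -0.11. Its last 7 probe sets differed by 0.80 to 1.56 (pooled-spread adjusted p = 1.2e-05). The division fell between neighbouring probe sets, and the gene mean of 0.45 lay in neither block. Rcan2, a calcineurin regulator, differed by 1.00 ± 0.18 and 1.09 ± 0.14 at 2 of 9 probe sets and by -0.13 to 0.19 at the other 7 (pooled-spread adjusted p = 3.9e-11). Elmo1, a partner of Rac activators, ran from -0.57 to -0.12 over the first 6 of 23 probe sets and from 0.32 to 1.17 over the rest (pooled-spread adjusted p = 2.9e-10). Pde4b, a cAMP phosphodiesterase, was between -0.39 and -0.08 over its first 11 of 26 probe sets. Later probe sets above the level filter reached 0.73 (pooled-spread adjusted p = 1.3e-09), while the gene mean of 0.14 ± 0.07 did not pass.

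Usp2, a deubiquitinase with known short and long forms, had 2 of 16 probe sets at 1.04 and 1.12. The rest above the level filter lay between -0.31 and 0.01 (pooled-spread adjusted p = 5.8e-08). Srxn1, a sulfiredoxin of the oxidant defence, showed 1.50 to 1.93 at its first 3 of 8 probe sets and 0.11 to 0.31 at the others above the level filter. Plagl1, an imprinted zinc finger factor, rose by 1.76 as a gene and had differences from 0.30 to 3.33 among its 11 probe sets. In Ercc1, a DNA repair endonuclease subunit, 1 of 9 probe sets stood at 1.59 ± 0.17 and the others between 0.19 and 0.49. Arhgap25, a Rac-inactivating protein, had probe sets 3 to 7 between 0.84 and 1.16 and its last 4 between -0.30 and 0.17.

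**Figure D5:**
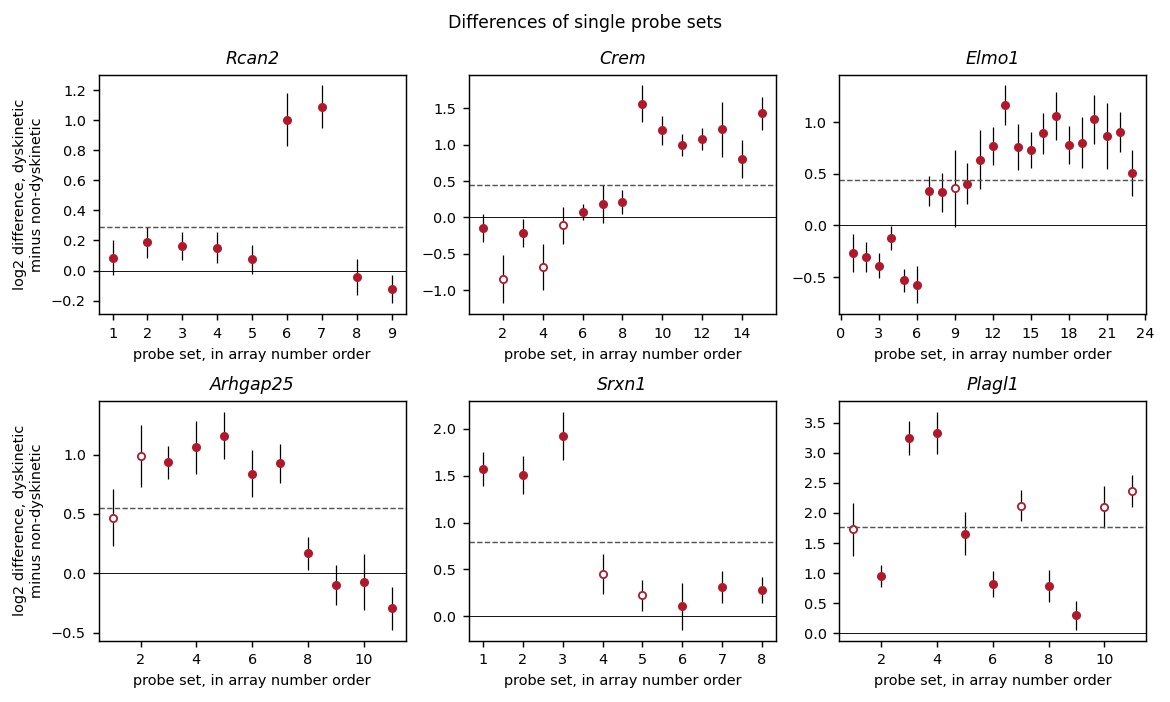
Log2 differences, dyskinetic minus non-dyskinetic, of every probe set of 6 genes in array number order, with bars for SE; open circles are probe sets below the level filter and the dashed line is the difference of the gene mean. Crem, Elmo1, Arhgap25 and Srxn1 each divide into neighbouring blocks, while in Rcan2 2 probe sets stand near 1.00.

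Outside the annotated genes, 42 of 30107 probe sets naming no gene or several passed (0.14%), 34 higher and 8 lower, and 40 of the 42 named no gene. Several had neighbouring numbers on the array. A run of 8, numbered 10766798 to 10766805, was higher by 0.95 to 1.52, and a run of 3, numbered 10761049 to 10761051, by 1.42 to 2.15. Probe sets 10796544 to 10796546 and 10796549 to 10796550 were higher by 1.54 to 2.20. No name is given to these transcripts. The count was 0 when any of 3 arrays was left out (dyskinetic array 1 or 2, or non-dyskinetic array 3), and 2726 probe sets had an unadjusted p under 0.05 with all arrays in.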

How the data were processed

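Total RNA from punches of lateral striatum (2 × 2 mm, RIN of 7 or more) was hybridised to exon-level arrays, 1 per animal. The deposited values are log2 levels per probe set, made by the authors with RMA in oligo 1.34 under R 3.2.3, per the submitters' processing notes; genome build and annotation version were not given in the sources used here. Of 213067 probe sets, 172924 named 1 gene, 1661 several and 38482 none. Gene values were means of the probe sets naming that gene alone (16582 genes, median 8 probe sets). Of 16633 annotation symbols, 12878 were current in RefSeq (GRCr8), 3700 were updated by synonym and 55 kept. The lowest 25% of genes by striatal mean were left out. limma 3.58.1 (R 4.3.3) was fitted to the 12 striatal arrays as 4 groups, with no covariate, and Benjamini-Hochberg adjusted p under 0.05 counted as called; the tissue difference used all 24 arrays with animal as random block (duplicateCorrelation). Probe set usage was tested with diffSplice. The number of arrays limits precision. Scripts used Python 3.11.15, pandas 2.3.3 and matplotlib 3.10.9, and each test was tested on simulated data.

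The members and gene lists were chosen with earlier results of these data known. Genes were named by rule: the 25 largest called rises and falls, up to 6 called members per list with a few uncalled ones, a fixed set of striatal genes, and the 10 strongest tissue differences and probe set tests; other list members, Ddc, Krt17, Vxn, Atf3, Crh and Faslg were chosen after their values were seen. Replicate numbers mark different animals and do not pair the samples: same-numbered dyskinetic and non-dyskinetic arrays correlated in their deviations at 0.047, -0.176 and -0.268. Alternatives were leaving out each array, a replicate block, other variance models, filters, probe set summaries and normalizations.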

Additional observations from a re-analysis of the deposited data

Results flagged for a closer look

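The dyskinetic minus non-dyskinetic difference was tested against the same difference in nigra, and 191 genes passed at an adjusted p under 0.05 in the limma fit. Among the genes named, the striatal difference exceeded the nigral one on the log2 scale by 3.62 for Nr4a2, 3.03 for Trh, 2.25 for Nmu, 2.14 for Timp1, 2.11 for Cdkn1a and 2.07 for Cck. The excess was 2.03 for Inhba, 2.03 for Vdr, 2.02 for Sstr2 and 1.95 for Gpr3. Timp1 had the highest adjusted p of these (0.045), with a nigral difference of 0.65 ± 0.41.

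Probe sets that name no gene or several, which the gene comparison does not use, gave 42 called differences between dyskinetic and non-dyskinetic striatum. Of these, 21 were rises of 1 or more on the log2 scale, and some falls also went beyond -1, down to -1.67. Single arrays were not tested as outliers within groups of 3.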

How the results depend on the processing

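The gene count of 654 ranged from 293 to 945 when 1 array was left out, was 388 on the 6 arrays alone and 356 with the median of probe sets. Leaving out 1 array gave 80 to 140 called list members (123 with all). Centring each array on its median gene turned the split of 381 higher and 273 lower (58.3% higher) into 462 and 186 (71.3%), and leaving out dyskinetic array 1 gave 282 and 306. The replicate block gave 694 genes, 616 of them shared with the 654. Of 130 called genes named, 78 passed in every one of the 18 alternatives that tested them, 52 missed in at least 1 and 0 reversed; 32 of the 130 were not tested with the lowest 50% of genes left out.

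Called genes that also differed between non-dyskinetic and vehicle striatum, comparisons that share arrays, numbered 3, and 0 to 4 without 1 array (0 without non-dyskinetic array 3), 6 with the replicate block, 5 with array weights, 0 with 1 variance per group or the median of probe sets, and 1 with the lowest 50% of genes left out. Tissue differences (191) numbered 126 with the median of probe sets, 1 in the 5 animals with both tissues, and 104 to 322 without 1 array. Probe set usage (38) was called in 74 genes without the filter, 18 with the lowest 50% left out, 115 by the Simes method, 1 with each probe set's own spread (an alternative chosen after seeing the data), and 15 to 108 without 1 array. By Simes, Crem missed (adjusted p = 0.088). Slc25a18 missed without non-dyskinetic array 3. Called probe sets naming no gene or several (42) numbered 25 with the replicate block and 0 to 42 without 1 array. The share of called rises with the palindrome was 3.33% over 100 bases (1.79% of all), where the AP-1 motif was in 1.33% (1.13% of all). The causes were not tested. A gene that missed the threshold is not shown to be equal in both groups.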
